A study of Canis lupus familiaris with 58 samples.

Results

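Lymph node tumours of dogs with B-cell lymphoma that died at or soon after progression were compared with those of dogs that lived on. In all, 15115 genes were measured. The comparison used 21 of the 58 arrays of the series, each from a different pet dog sampled before treatment. A dog entered when its specimen was lymph node and its progression-free survival (PFS) indicator was 1. The gap was the overall survival (OS) time minus the PFS time, so that it covers only the time after progression. The short group held the 11 dogs with a gap of at most 30 and an OS indicator of 1. The long group held the 10 dogs with a gap of at least 100, with either OS indicator. Indicators of 1 were taken to mark progression or death, and the labels name no unit of time.

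The series measured total RNA of canine B-cell lymphomas on 58 Affymetrix arrays. Lymph node was the specimen in 39 dogs, and the others had fine needle aspirates, which are cells drawn through a needle. All tumours were identified as B-cell by flow cytometry or immunohistochemistry. No treatment is named in the labels used here, so the drugs given before or after progression are not known, nor is the cause of a death. The RNA was taken before treatment, so it describes the tumour at diagnosis and not the tumour that progressed.

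Canine diffuse large B-cell lymphoma (DLBCL) is an aggressive tumour of large B cells that usually responds to combination chemotherapy and then relapses. Survival after relapse depends both on how fast the tumour grows back and on whether it still responds to drugs. Tumour cells that divide rapidly copy their DNA in S phase, assemble a spindle in mitosis, and draw on pathways that supply nucleotides, serine and respiratory energy. Marginal zone lymphoma (MZL) arises in the outer zone of the follicle and often runs a slower course.

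The short group held 10 DLBCL and 1 MZL, and the long group 9 DLBCL and 1 MZL. Immunoglobulin heavy chain (IGHV) mutation status was static in 5 and ongoing in 5 dogs of each group, and 1 short dog had no status (Fisher's exact p = 1, two-sided). The gap had a median of 9 in the short group, from 0 to 30, and a median of 170.5 in the long group, from 106 to 291. In 3 short dogs the gap was 0, and in 3 long dogs the OS time was censored, so that the true gap of these long dogs is longer than the one used. A gap of 0 does not separate progression from death, so the 3 short dogs may have died without a recorded progression. The 10 remaining lymph node dogs that progressed had gaps between 38 and 85 and are called the middle group, 8 with DLBCL and 2 with MZL.

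**Figure D1:**
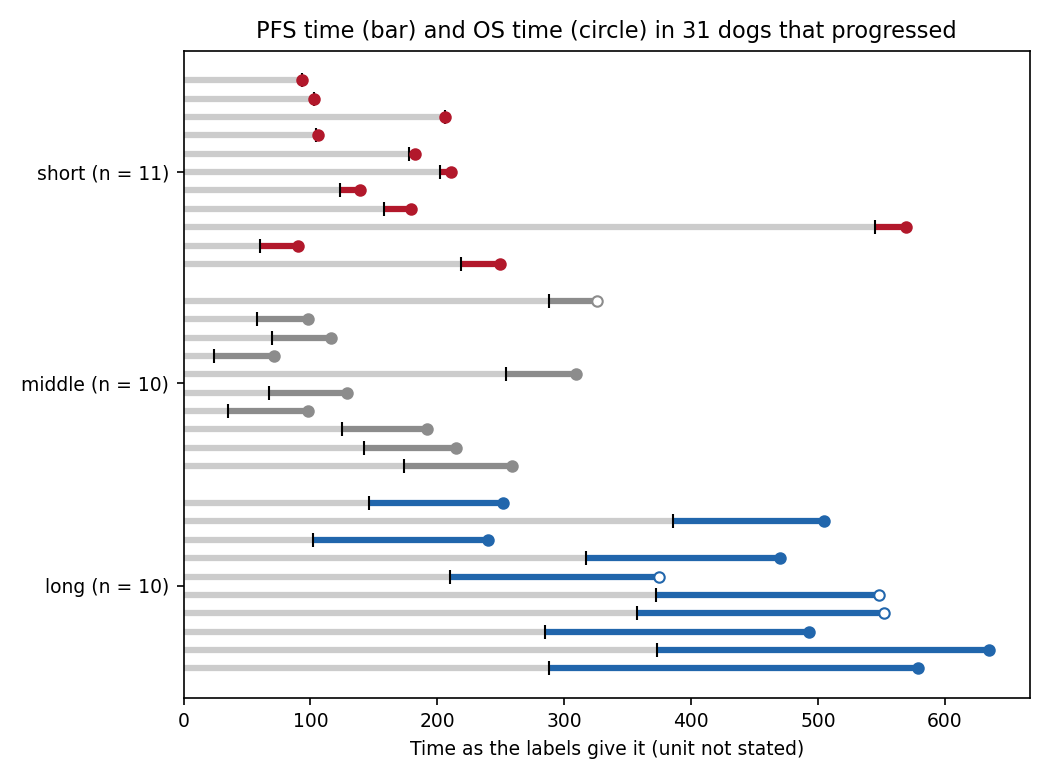
Each line is 1 of the 31 lymph node dogs whose PFS indicator was 1, with time on the horizontal axis as the labels give it. Grey line, time to the PFS time (vertical bar); coloured line, the gap from PFS time to OS time; filled circle, OS indicator 1; open circle, OS indicator 0. The 11 short dogs have gaps of at most 30, and 3 of the 10 long dogs have open circles.

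The time to progression was also compared between the groups. PFS time ran from 60 to 545 in the short group, with a median of 158, and from 102 to 386 in the long group, with a median of 302.5. The ranges overlapped, and the mean was 181 ± 132 (SD, n = 11) against 284 ± 100.1 (n = 10). The difference of -102.6 did not pass the two-sided permutation test (p = 0.0628), and on a log2 scale it did (-0.79, permutation p = 0.030). PFS time was therefore also set as a covariate below.

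Array quality was compared next. The 3' minus 5' difference of the ACTB and GAPDH control probe sets, which grows as RNA breaks down, was 0.358 ± 0.151 in short and 0.511 ± 0.201 in long tumours (permutation p = 0.0638, adjusted p = 0.159 over 5 measures of quality). For ACTB alone it was 0.032 against 0.313 (permutation p = 0.0226, adjusted p = 0.113). The mean correlation of each array with the others was 0.970 in both groups. The B-cell gene MS4A1, which encodes CD20, was measured between 12.02 and 13.79 in all 21 tumours, with a difference of -0.06 ± 0.19 (SE). Other B-cell markers did not all share this value. CD79B differed by 0.68 ± 0.44, CD79A by 0.64 ± 0.43, CD22 by 0.47 ± 0.40 and PAX5 by 0.01 ± 0.06.

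No single gene passed the threshold between short and long tumours. At a Benjamini-Hochberg adjusted p under 0.05 in limma, 0 of 15115 genes were called, and the smallest adjusted p was 0.105. An unadjusted p under 0.05 was reached by 1062 genes with a higher mean in short tumours, 7.03% of all genes, and by 799 with a lower mean, 5.29%. About 756 genes in all would be expected to reach it if no gene differed. Correlation between genes widens the spread of that count, so larger counts can also arise by chance. Of all genes, 51.8% had a higher mean in short tumours, the median difference was 0.01, and no gene had groups that did not overlap. The split moved with the scaling. Of the genes with an unadjusted p under 0.05, 57.1% were higher in short tumours as deposited, 41.5% after centring each array on its median and 49.8% after quantile normalization.

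Small changes of the sample set moved a few genes across the threshold. Without the MZL dog of the short group (short replicate 7), 16 genes had an adjusted p under 0.05 in limma, 12 higher and 4 lower in short tumours. With both MZL dogs left out there were 8 (CDC20, KIF22, DCLRE1B, PHGDH, SHMT2 and 1 gene without a name higher, CARF and SLC10A1 lower). Leaving out short replicate 2 gave 3 genes, and leaving out long replicate 8 gave 5. Without the 3 short dogs with a gap of 0, 0 genes passed and the smallest adjusted p in limma was 0.272.

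The genes with the smallest p-values among those higher in short tumours included 5 genes of mitosis and DNA replication (CDC20, KIF22, PLK1, ASF1B and CDC45). The 12 named by rule were CDC20, KIF22, PLK1, ASF1B, DCLRE1B, CDK2AP2, SUV39H1, B3GNT7, CDC45, PCSK2, MAFG and PHGDH. All had an adjusted p of 0.105 in limma, and their differences ran from 0.33 to 1.04 on the log2 scale. In all but PHGDH, each of the 11 short tumours lay above the median of the long tumours.

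CDC20 activates the ubiquitin ligase that starts anaphase. Its log2 expression was lowest at 11.23, 11.77 at the median and highest at 12.04 in short tumours, against 10.48, 11.02 and 11.62 in long tumours. The groups overlapped, but 7 short tumours lay above the highest long tumour and 8 long tumours lay below the lowest short one. The difference was 0.68 ± 0.13 (SE), a fold of 1.60 (limma p = 2.41e-05, adjusted p = 0.105).

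PLK1 is the kinase that drives entry into mitosis and spindle assembly. Short tumours ran from 8.75 through a median of 9.48 to 10.31 log2 units, and long tumours from 7.90 through 8.39 to 9.13. In 8 short tumours PLK1 was above every long tumour. The difference was 0.98 ± 0.19, a fold of 1.98 (limma adjusted p = 0.105).

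KIF22, a kinesin that moves chromosomes on the spindle, had medians of 10.09 in short and 9.45 in long tumours, with 6 short tumours above all long ones. ASF1B, a chaperone that hands histones to newly copied DNA, ran from 9.27 to 10.22 in short and from 8.32 to 9.53 in long tumours, a difference of 0.64 ± 0.13. CDC45, a part of the helicase that unwinds DNA at replication forks, differed by 0.43 ± 0.09, with 8 long tumours below the lowest short one. Histone handling and fork unwinding both belong to S phase, so these genes add replication to the mitotic genes above. DCLRE1B, a nuclease that works at telomeres and DNA crosslinks, had 10 of 11 short tumours above the highest long tumour, at a difference of 0.37 ± 0.07. SUV39H1, which methylates histone H3 in heterochromatin, differed by 0.34 ± 0.07 in its main probe set, and 1 of its 3 probe sets lay near 0 at -0.01.

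PHGDH is the first enzyme of serine synthesis from a glycolytic intermediate. Its log2 expression ran from 9.71 through a median of 11.32 to 11.95 in short tumours, and from 9.37 through 10.21 to 10.91 in long tumours. All but 2 short tumours were above the highest long tumour, while 1 short tumour was among the low values of the long group. The difference was 1.04 ± 0.22, a fold of 2.06 (limma adjusted p = 0.105), and all 5 PHGDH probe sets gave differences between 0.90 and 1.13.

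The remaining 4 of the 12 have less in common. CDK2AP2, a small protein that binds the kinase CDK2, differed by 0.64 ± 0.13, and MAFG, a small partner of bZIP transcription factors, by 0.33 ± 0.07, with 9 short tumours above the highest long tumour in both. B3GNT7, which extends keratan sulphate chains, had 9 as well, at a difference of 0.36 ± 0.07. PCSK2, a prohormone-cleaving protease of neuroendocrine cells, was listed between 4.44 and 5.25 in all 21 tumours and differed by 0.33 ± 0.07.

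**Figure D2:**
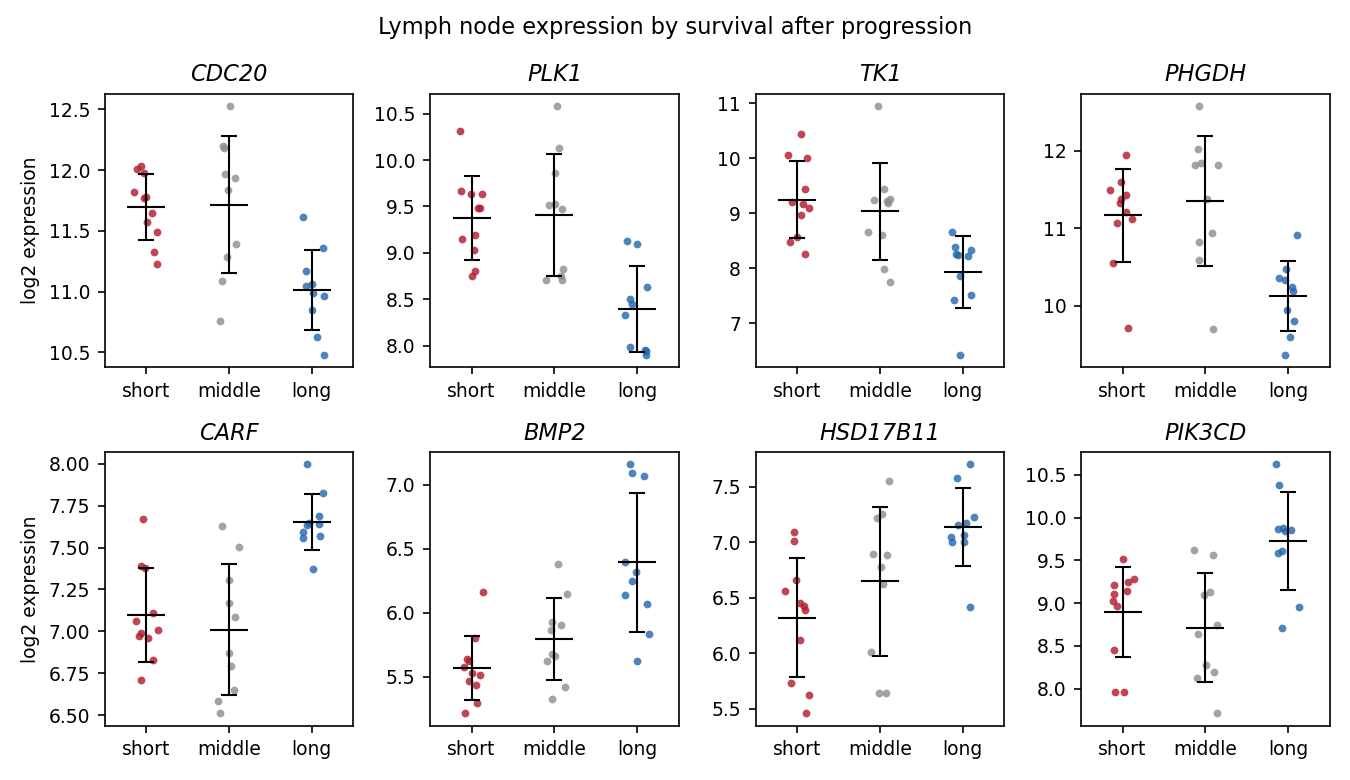
Log2 expression of 8 genes in the lymph node tumours of 11 short, 10 middle and 10 long dogs; points are dogs, the wide bar is the mean and the whiskers are ± 1 SD. The vertical axes differ between genes and do not start at 0. The 4 genes of the top row had higher short than long means and the 4 of the bottom row lower ones, and in each gene the short and long points overlapped.

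Genes lower in short tumours had no common role among the 12 named by rule. They were CARF, BMP2, B3GAT2, RRAGB, OFD1, RC3H2, AFF4, SLC10A1, HSD17B11, TRMT11, CCDC181 and SENP6, with differences from -0.97 to -0.28 and adjusted p-values from 0.105 to 0.131 in limma. CARF, a transcription factor responsive to calcium, had the smallest p of any named gene. Its short tumours ran from 6.71 through a median of 7.01 to 7.67, and its long tumours from 7.37 through 7.64 to 7.99. In 8 short tumours CARF was below the lowest long tumour, and the difference was -0.55 ± 0.10 (limma p = 1.48e-05, adjusted p = 0.105).

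BMP2, a secreted ligand of the TGF-beta family, ran from 5.21 through 5.53 to 6.16 in short and from 5.62 through 6.28 to 7.16 in long tumours. All 11 short values lay below the long median, and the difference was -0.83 ± 0.17. HSD17B11, a steroid and lipid droplet dehydrogenase, differed by -0.82 ± 0.19, and RRAGB, a small GTPase that reports amino acids to mTORC1, by -0.69 ± 0.15. OFD1, a protein of the centriole and cilium base, differed by -0.52 ± 0.12, and SENP6, which removes SUMO chains, by -0.50 ± 0.12. In OFD1, 10 short tumours lay below the lowest long tumour, and in SENP6 9 did. CCDC181 had the widest difference of the 12, -0.97 ± 0.23, with short values from 5.83 to 7.29 and long values from 6.43 to 8.35. AFF4, a scaffold of the super elongation complex that releases paused RNA polymerase, had the narrowest, -0.28 ± 0.06. RC3H2, which destabilises messenger RNAs, differed by -0.33 ± 0.07.

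Because CDC20 and PLK1 led the genes, the proliferation genes were followed as a list, one of 38 that describe drug response, tumour biology and the cells of a node. Lists were described by counts and medians, without a test of their own, and members with an unadjusted p under 0.05 are named in places, chosen after their values were seen. Of 33 proliferation genes, 30 had a higher mean in short tumours and 3 a lower one, against 51.8% higher among all genes. Of these, 17 had an unadjusted p under 0.05, all higher, where 7.03% of all genes did. CDC20 and PLK1, which prompted the choice of the list, are among the 17. The median difference was 0.34, and it was 0.32 after centring the arrays and 0.31 after quantile normalization.

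The members spanned the cell cycle. For the S phase, PCNA, the sliding clamp of DNA polymerase, differed by 0.35 ± 0.09, MCM7 of the replicative helicase by 0.41 ± 0.11, and E2F1, which switches on S phase genes, by 0.47 ± 0.13. Some members that act later differed by more. CCNB2, a cyclin that partners CDK1, had a mean of 10.97 ± 0.27 (SD) in short and 10.35 ± 0.37 in long tumours, a difference of 0.63 ± 0.13. CCNA2, the cyclin of S and G2 phase, differed by 0.57 ± 0.16 and FOXM1, a transcription factor of mitotic genes, by 0.50 ± 0.16, and the mitotic kinase AURKA by 0.42 ± 0.14. Some members barely differed: UBE2C at -0.05, MCM6 at -0.03 and BUB1B just under 0 were the 3 with a lower mean, and the helicase subunits MCM2, MCM3, MCM4 and MCM5 lay between 0.06 and 0.19. Since UBE2C and BUB1B act in mitosis, the mitotic members were not uniform.

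Averaged over the 33 genes, the short tumours ran from 10.15 to 11.00 with a median of 10.64, and the long tumours from 10.00 to 10.65 with a median of 10.22. The groups overlapped widely: 5 short dogs lay above the highest long dog, and 5 long dogs below the lowest short dog. The MZL dog of the short group had the lowest mean of that group, 10.15. Of the short dogs, 10 of 11 exceeded the long median.

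**Figure D3:**
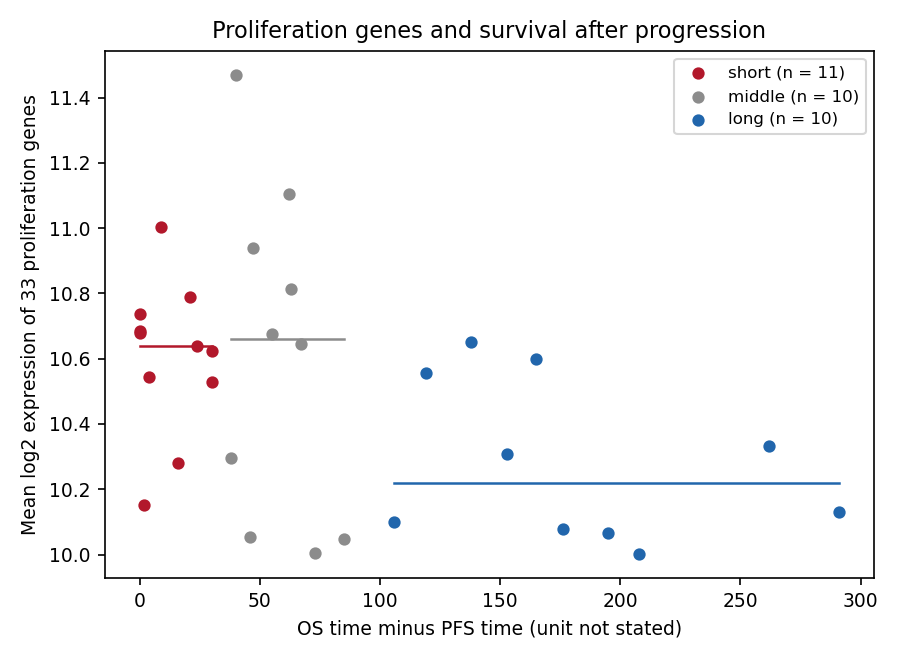
Mean log2 expression of the 33 proliferation genes in each of 31 lymph node tumours against the gap between PFS and OS time. Points are dogs and horizontal lines are the group medians (10.64 short, 10.66 middle, 10.22 long). The middle dogs spread over the whole range, from 10.01 to 11.47.

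The middle dogs did not fall between the groups for these genes. Their proliferation mean ran from 10.01 to 11.47 with a median of 10.66, and 7 of 10 exceeded the long median. For 18 of the 33 genes the middle mean lay beyond the short mean, for 12 between the short and long means and for 3 beyond the long mean. CDC20 had a middle median of 11.88 beside 11.77 in short tumours, and PLK1 9.50 beside 9.48. Of the 12 named genes higher in short tumours, the middle mean lay between the groups for 6 and beyond the short mean for 6. Of the 12 lower in short tumours, it lay between the groups for 10 and beyond the short mean for 2. Both sets of 12 were chosen by their short and long values, which makes a middle mean between the groups likely. The middle dogs also had the shortest PFS times, from 24 to 288 with a median of 97.5.

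Genes that supply nucleotides and amino acids were also higher in part. Of 25 measured, 19 had a higher mean in short tumours, 8 of them at an unadjusted p under 0.05 (7.03% of all genes), and the median difference was 0.18. The leading members make or salvage the building blocks of DNA. TK1, thymidine kinase of the salvage pathway, ran from 8.26 through 9.16 to 10.44 in short and from 6.43 through 8.24 to 8.67 in long tumours. In 8 short tumours TK1 was above the highest long value, at a difference of 1.31 ± 0.28, a fold of 2.48 (limma adjusted p = 0.105). RRM2, the regulated subunit of ribonucleotide reductase and also a proliferation member, differed by 0.65 ± 0.16. DCK, which phosphorylates deoxycytidine and activates cytarabine, had means of 9.03 ± 0.60 and 8.16 ± 0.53, a difference of 0.87 ± 0.24. SHMT2, the mitochondrial enzyme that takes serine into folate metabolism, differed by 0.47 ± 0.12. ASNS, asparagine synthetase, which lets cells grow without outside asparagine, had a difference of 0.20 ± 0.66, with an SD of 1.68 in short and 1.51 in long tumours. TYMS, the target of fluorouracil, differed by 0.15.

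Respiratory chain genes had the most uniform direction of the 38 lists. Of 32 genes of mitochondrial respiration, 31 had a higher mean in short tumours and 12 an unadjusted p under 0.05 (7.03% of all genes), with a median difference of 0.26. The members came from every complex: NDUFV1 of complex I differed by 0.34 ± 0.11, SDHB of complex II by 0.39 ± 0.16, CYC1 of complex III by 0.50 ± 0.22, COX5B of complex IV by 0.43 ± 0.17 and ATP5F1C of the ATP synthase by 0.27 ± 0.08. The single lower member was NDUFS1 at -0.05. The 12 became 9 after centring and 8 after quantile normalization, and 22 with the 3' minus 5' difference as a covariate (9.84% of all genes in that fit). Leaving out long replicate 6 or short replicate 8 brought the 12 to 7. A stricter rule, which kept only the shortest and longest gaps and so fewer dogs, left 2. Over all genes, the number higher at that p also fell under it, from 1062 to 497. A wider rule, which added middle dogs to both groups, left 4. In bulk tissue, more cells of a type and more RNA per cell cannot be told apart, here or for any other gene.

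Glycolysis genes were mixed, with 19 of 29 higher and 10 lower in short tumours. TPI1, triose phosphate isomerase, differed by 0.73 ± 0.20, PFKP, a phosphofructokinase, by 0.54 ± 0.17 and PKM, pyruvate kinase, by 0.89 ± 0.33, while PFKL, another phosphofructokinase, had -0.24 ± 0.11. For TPI1, 2 of 3 probe sets had a positive difference, and the lowest was at -0.03. MYC itself differed by 0.11 ± 0.24, and 17 of 25 genes of its list had a higher mean, with a median of 0.09. CDK4, a G1 kinase in that list, ran from 12.36 through 12.89 to 13.17 in short and from 11.77 through 12.44 to 12.70 in long tumours, a difference of 0.49 ± 0.11 (limma adjusted p = 0.120). Ribosomal protein genes did not share this direction, with 23 of 50 higher and a median of -0.01. Thus the higher means in short tumours covered cell cycle and respiration but not the ribosome list.

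**Figure D4:**
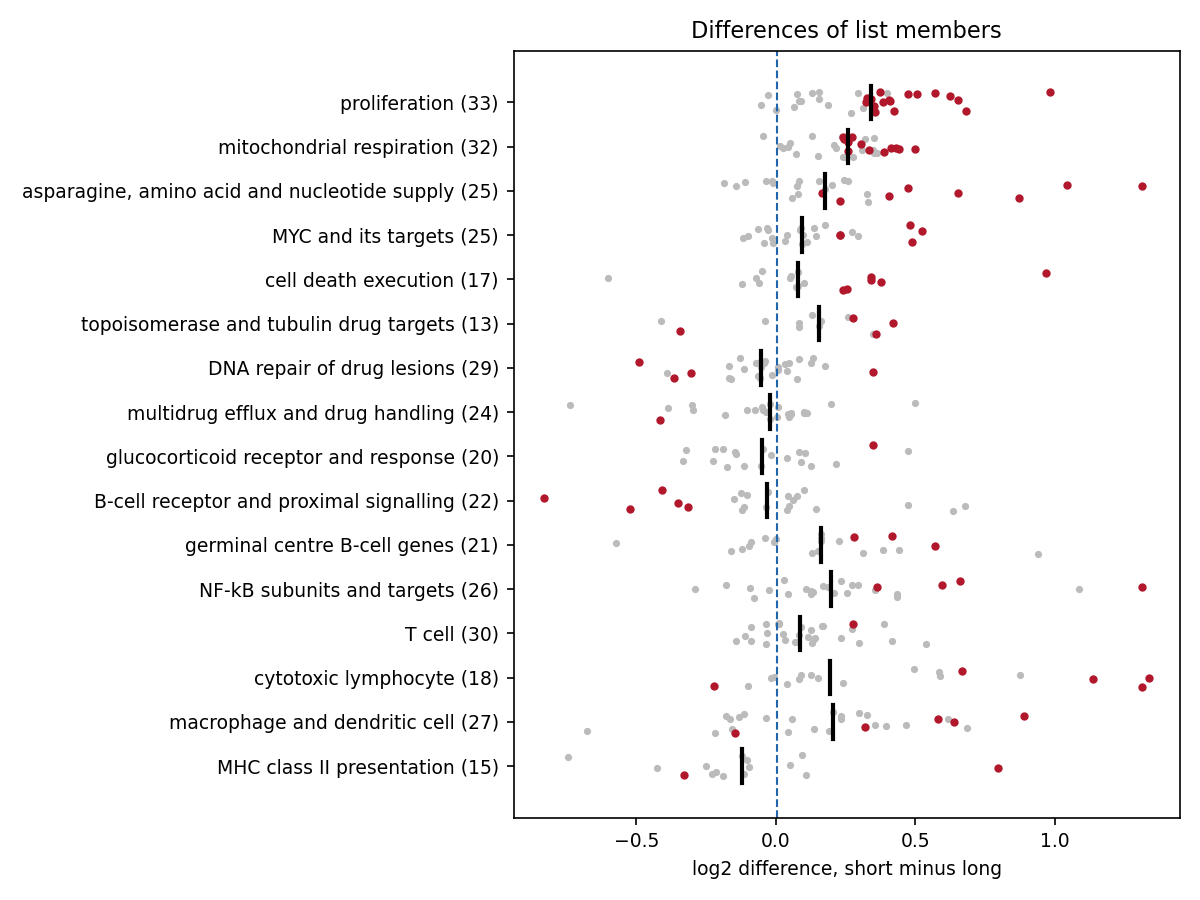
Each point is 1 gene, placed by its log2 difference, short minus long, and grouped by list with the number of genes measured in brackets; points are spread vertically only to separate them. Red points had an unadjusted p under 0.05 in limma, black bars are list medians and the dashed line is the median of all 15115 genes (0.01). The medians of proliferation (0.34) and mitochondrial respiration (0.26) lie furthest to the right.

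Genes of drug efflux, glucocorticoid response and DNA repair had no majority of higher means. ABCB1, the efflux pump known as P-glycoprotein that exports doxorubicin and vincristine, ran from 4.29 through 4.56 to 6.12 in short and from 4.56 through 4.79 to 5.41 in long tumours. In 6 short tumours ABCB1 was below the lowest long tumour and in 1 it was above the highest. The difference of the means was -0.05 ± 0.19 (limma adjusted p = 0.941), and its sign turned in 4 alternative settings. Of 24 efflux and drug handling genes, 11 were higher and 13 lower, and 1 had an unadjusted p under 0.05 (4.17%, near the 5.29% of all genes that were lower at that p). It was GCLC, the rate-limiting enzyme of glutathione synthesis, at -0.42 ± 0.17. ABCC1, another efflux pump, differed by -0.39 ± 0.21.

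NR3C1, the glucocorticoid receptor through which prednisone acts, had medians of 9.09 in short and 9.16 in long tumours and a difference of -0.02 ± 0.15, whose sign changed in 4 alternative settings. Its list had 8 genes higher and 12 lower, and PTGES3, a co-chaperone of the receptor, differed by 0.35 ± 0.14. Of 29 DNA repair genes, 11 were higher and 18 lower. NBN, which senses double-strand breaks, differed by -0.37 ± 0.12, with all 11 short tumours below the long median, and PRKDC, the kinase of end joining, by -0.49 ± 0.17, while APEX1, the endonuclease of base excision repair, had 0.35 ± 0.13.

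Of 13 genes of topoisomerases and tubulins, the targets of several lymphoma drugs, 10 had a higher mean in short tumours, with a median of 0.15. At an unadjusted p under 0.05, 3 were higher and 1 lower, where 7.03% and 5.29% of all genes were. TUBB and TUBA1C, tubulins bound by vincristine as dimers, differed by 0.42 ± 0.11 and 0.36 ± 0.09. TOP2B, the topoisomerase II of non-dividing cells, had -0.35 ± 0.10, and TOP2A, that of dividing cells and a proliferation member, 0.35 ± 0.18.

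Survival and death genes were partly higher. BCL2 itself differed by 0.17 ± 0.24, a value that turned negative in 2 alternative settings, and 10 of 17 genes of its family were higher. BIRC5, an inhibitor of apoptosis that is also part of the mitotic chromosomal passenger complex, differed by 0.39 ± 0.13. Of 17 genes that carry out cell death, 12 were higher, 6 of them at an unadjusted p under 0.05 (7.03% of all genes). FAS, a death receptor, ran from 6.63 through 7.73 to 9.05 in short and from 6.32 through 6.60 to 8.29 in long tumours, at 0.97 ± 0.32 (limma adjusted p = 0.239). TNFRSF1A, the receptor of tumour necrosis factor, differed by 0.34 ± 0.08, and CASP6, an executioner caspase, by 0.26 ± 0.08.

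In the list of B-cell receptor signalling, 5 of 22 members had an unadjusted p under 0.05, all with a lower mean in short tumours, where 5.29% of all genes did. Counting all its members, 10 were higher and 12 lower, with a median of -0.03. PIK3CD, the PI3 kinase subunit of lymphocytes, ran from 7.97 through 9.11 to 9.51 in short and from 8.70 through 9.85 to 10.62 in long tumours. All 11 short tumours lay below the long median and 8 long tumours above the highest short tumour, at a difference of -0.83 ± 0.23 (limma adjusted p = 0.171). MALT1, the protease that links the receptor to NF-kB, differed by -0.41 ± 0.14. Among kinases near the receptor, lower means were found for BLK at -0.52 ± 0.19, BTK at -0.35 ± 0.14 and LYN at -0.31 ± 0.11. The signalling chains of the receptor itself had higher means, CD79A at 0.64 ± 0.43 and CD79B at 0.68 ± 0.44.

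Genes of B-cell state were less clear. BCL6, the repressor of the germinal centre, ran from 7.78 to 11.58 in short and from 8.27 to 9.87 in long tumours, with a difference of 0.16 ± 0.36 that turned negative in 4 alternative settings. S1PR2, which holds B cells in the germinal centre, differed by 0.57 ± 0.17, and 14 of 21 germinal centre genes were higher. NF-kB subunits and targets were higher in 21 of 26, with a median of 0.20. At an unadjusted p under 0.05, 4 were higher and 0 lower, where 7.03% and 5.29% of all genes were. Setting log2 PFS time as a covariate gave 15 higher and 11 lower, with 4 higher at that p (7.59% of all genes). TNIP1, an inhibitor of NF-kB, differed by 0.36 ± 0.11 without the covariate. PIM1, a kinase on the list of activated B-cell-like DLBCL, differed by 0.43 ± 0.12. MHC class II genes had 4 higher and 11 lower. Of these, DLA-DQA1 had -0.33 ± 0.15, which became 0.03 under a wider group rule, and CD74, the invariant chain, had 0.80 ± 0.35.

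Genes of other cells in the node varied between dogs. Of 18 cytotoxic lymphocyte genes, 14 were higher in short tumours. At an unadjusted p under 0.05, 4 were higher and 1, the inhibitory receptor KLRG1, lower, where 7.03% and 5.29% of all genes were. GZMB, a granule protease, ran from 5.69 through 6.95 to 10.13 in short and from 4.92 through 5.82 to 8.08 in long tumours, at 1.34 ± 0.51 (limma adjusted p = 0.283). CCL5, a chemokine of activated T cells, differed by 1.31 ± 0.47, GZMK by 1.14 ± 0.48 and NKG7 by 0.67 ± 0.28. With log2 PFS time as a covariate, 1 cytotoxic gene in place of 4 had an unadjusted p under 0.05 in the higher direction. This was 5.56% of the list, below the 7.59% of all genes in that fit. The mean of the list ran from 6.71 to 8.32 in short and from 6.51 to 7.22 in long tumours. CD3E, the T-cell receptor chain, had -0.03 ± 0.11 in its main probe set and 0.52 in another. Of 30 T-cell genes, 23 were higher, with a median of 0.09. Only 1 was higher at an unadjusted p under 0.05 (3.33%, below the 7.03% of all genes). It was PDCD1, the checkpoint receptor PD-1, at 0.27 ± 0.08. For PDCD1, 2 of 3 probe sets had that sign, and the lowest was at -0.02.

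Macrophage genes were higher in 18 of 27, and at an unadjusted p under 0.05, 4 were higher and 1 lower (7.03% and 5.29% of all genes). With log2 PFS time as a covariate, 14 were higher and 13 lower, and 1 was higher and 3 lower at that p (7.59% and 6.42% of all genes). Without the covariate, the larger differences included C1QB, a complement chain, at 0.64 ± 0.26 and CTSD, a lysosomal protease, at 0.58 ± 0.21. CD14, a monocyte receptor, differed by 0.19 ± 0.13 and COL1A1, the fibrillar collagen of fibroblasts, by 0.21 ± 0.62, the latter negative in 3 alternative settings. CD70, a ligand of the receptor CD27 on T cells, ran from 7.37 through 8.68 to 10.66 in short and from 6.46 through 6.92 to 10.12 in long tumours. All 11 short tumours exceeded the long median, at 1.31 ± 0.42 (limma adjusted p = 0.221). CD79A, the signalling chain of the B-cell receptor, differed by 0.64 ± 0.43. The part of T cells, cytotoxic cells and macrophages in the other differences was not tested.

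PFS time was set as a covariate because its median was lower in the short group. With log2 PFS time as a covariate, 0 of 15115 genes had an adjusted p under 0.05 in limma (smallest 0.067), while 7.59% were higher and 6.42% lower at an unadjusted p under 0.05. PLK1 was then 1.08 in place of 0.98, ASF1B 0.77 in place of 0.64 and CARF -0.63 in place of -0.55. Of the 33 proliferation genes, 14 were higher at an unadjusted p under 0.05. HSD17B11 moved from -0.82 to -0.66.

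RNA integrity was set as a covariate because the 3' minus 5' difference was lower in short tumours. This alternative, added after the data were seen, gave 19 genes with an adjusted p under 0.05 in limma, 14 higher and 5 lower in short tumours (0.126% of all genes). At an unadjusted p under 0.05, 9.84% of genes were higher and 6.75% lower, and 15 of the 33 proliferation genes were higher. The higher ones included the mitotic genes CDC20, PLK1, KIF22, CCNB2, CENPH, CKS1B and PTTG1, and also PCSK2, TUBA1C, SNRPA, ALYREF, DPM1 and ATP5F1C. The lower ones were CARF, SENP6, OFD1, PNISR and OR7G8. PTTG1, securin, which holds sister chromatids together until anaphase, was 1.39 ± 0.27 with the covariate (adjusted p = 0.0466) and 1.13 ± 0.27 without it (adjusted p = 0.131). CDC20 was 0.77 ± 0.13 with it (adjusted p = 0.0417). With both covariates 18 genes passed, of which 10 were among the 19. The covariate changes whether these genes pass the threshold, and their direction was the same with and without it.

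The fine needle aspirates allowed the same comparison in dogs the lymph node fit did not use. With the same gap rule there were 5 short and 6 long aspirates, of unknown diagnosis, with median gaps of 10 and 457.5. Median PFS time was 178 in short and 388 in long aspirates. The 3' minus 5' difference was 0.317 ± 0.090 (SD) in short and 0.705 ± 0.656 in long aspirates, where 1 array stood at 1.95 and also had the lowest mean correlation, 0.940. In limma, 0 genes had an adjusted p under 0.05, and an unadjusted p under 0.05 was reached by 316 genes higher, 2.09%, and 308 lower, 2.04%. Of all genes, 45.0% had a higher mean in short aspirates.

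The proliferation genes had the same direction in the aspirates. There 31 of 33 had a higher mean in short dogs, against 45.0% of all genes, with a median difference of 0.53. At an unadjusted p under 0.05, 10 were higher (2.09% of all genes). Without the long aspirate at 1.95, all 33 were higher, against 48.4% of all genes, with a median of 0.54. In that fit 12 of the 33 were higher at an unadjusted p under 0.05, and 256 of all 15115 genes were. Of the 12 genes highest in short lymph node tumours, 10 were higher in short aspirates (45.0% of all genes). PLK1 differed by 0.81 (limma p = 0.039, adjusted p = 0.844) and ASF1B by 0.80, while CDC20 differed by 0.48 with an SE of 0.33. PCSK2 and B3GNT7 had -0.07 and -0.13. CDK1, the mitotic kinase, differed by 0.64, CCNA2 by 1.02 and DCK by 1.16. The proliferation mean ran from 9.91 to 10.93 in short and from 9.51 to 10.74 in long aspirates, and 4 of 5 short dogs exceeded the long median. Respiration genes were higher in 31 of 32, with a median of 0.16. Of these, 2 had an unadjusted p under 0.05 (6.25%, against 2.09% of all genes).

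The genes lower in short lymph node tumours were less alike in the aspirates. Of the 12, 7 were lower there and 5 higher, against 55.0% lower among all genes. RC3H2 had -0.49 and CARF -0.33, while CCDC181 had 0.38, TRMT11 0.36 and B3GAT2 0.31. The difference between the specimens, tested as an interaction in limma, gave 0 genes with an adjusted p under 0.05 and 4.86% and 3.51% of genes at an unadjusted p under 0.05. B3GAT2, TRMT11 and CCDC181 had an adjusted interaction p of 0.546 each. PIK3CD had 0.03 and CD70 -0.41 in the aspirates, opposite in sign to their lymph node values. Of the 18 cytotoxic genes 8 were higher there, with GZMB at 0.43, CCL5 at -0.16, NKG7 at -0.16 and GZMK at -0.64. Among 30 T-cell genes, 4 were higher and 26 lower in short aspirates, with a median of -0.31. NF-kB subunits and targets had 11 higher and 15 lower there, with a median of -0.04.

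**Figure D5:**
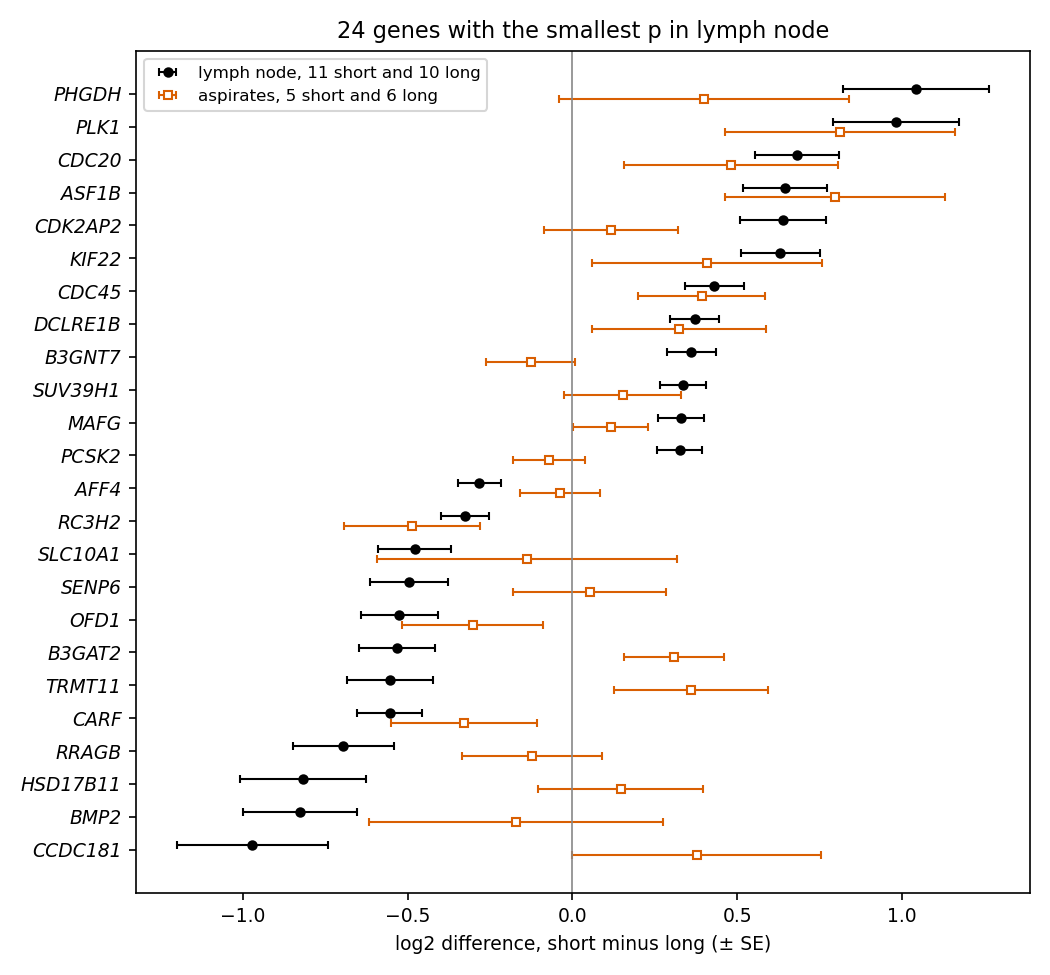
Log2 differences, short minus long, with SE for the 24 genes with the smallest p in lymph node; filled circles, lymph node (11 short, 10 long); open squares, aspirates (5 short, 6 long). The lymph node values were used to choose the genes. Squares lie on the same side of 0 as the circles for 10 of the 12 genes higher and 7 of the 12 genes lower in short lymph node tumours.

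All 31 lymph node dogs with a PFS indicator of 1 were then used at once, with the gap as time to death. The 3 dogs with a gap of 0 were included. In this Cox score test a hazard ratio is given per 1 SD of log2 expression, and 2 genes had an adjusted p under 0.05, 0.0132% of all genes. An unadjusted p under 0.05 was reached by 5.39% of genes with a higher and 4.45% with a lower hazard. This test shares 21 of its dogs with the comparison above, so it is not a separate set of animals.

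TOP3A, a topoisomerase that resolves DNA junctions, had a hazard ratio of 0.294 (95% interval 0.169 to 0.511, adjusted p = 0.0267). Its log2 expression ran from 7.98 through 8.17 to 8.30 in short, from 8.16 through 8.29 to 8.34 in middle and from 8.28 through 8.35 to 8.45 in long tumours. The medians were ordered with the gap, over a span of less than 1 log2 unit in all, and 9 short tumours lay below the lowest long one. TOP3A, like TCEAL1 below, was picked by a test on the gap in these same dogs. Its order and separation follow from that choice and are no further support. The short minus long difference was -0.20 ± 0.05.

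TCEAL1, a nuclear protein related to a transcription elongation factor, had a hazard ratio of 0.377 (95% interval 0.239 to 0.593, adjusted p = 0.0267). It ran from 6.09 through 8.33 to 9.24 in short and from 8.63 through 9.43 to 9.79 in long tumours, and from 6.74 through 9.09 to 10.14 in the middle group. The short tumours were spread over more than 3 log2 units while the long tumours were close together. The short minus long difference was -1.31 ± 0.33 in lymph node and 0.72 ± 0.24 in the aspirates, opposite directions (interaction p = 0.000378, adjusted p = 0.546 in limma). Neither gene passed in DLBCL alone (adjusted p = 0.0514 for both). Without the dogs with a gap of 0, the adjusted p was 0.0968 for TOP3A and 0.270 for TCEAL1.

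The leading genes of the group comparison did not pass in this test. PLK1 had a hazard ratio of 2.07 per SD (95% interval 1.34 to 3.20, adjusted p = 0.153) and CDC20 2.03 (1.30 to 3.16, adjusted p = 0.179). MAFG had 3.09 (1.76 to 5.42) and CARF 0.485 (0.309 to 0.761). TK1 had 2.27 per SD with an adjusted p of 0.150.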

How the data were processed

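The deposited values are on a log2 scale, read from their range, and cover 43035 probe sets on each of 58 arrays. The submitters' processing notes name Affymetrix Expression Console and RMA, a method that subtracts background, brings arrays to one distribution and fits 1 value per probe set. Versions, scan dates and batches are not given in the sources used here, and the number of arrays limits the precision. Trizol RNA was amplified and labelled with biotin, per the labels' protocols.

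By a platform table, 29254 probe sets had 1 gene symbol, 439 had more and 13231 had none. Each of 15115 genes was represented by its brightest probe set, by the mean of all arrays, and 8254 genes had more than 1. Symbols were checked through a RefSeq table (assembly UU_Cfam_GSD_1.0), with 27680 probe sets matched by gene number and 0 symbols changed. Of 106 named genes, 59 had more than 1 probe set, and in 46 of them all probe sets gave the same sign.

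Short and long dogs were compared with limma 3.58.1 in R 4.3.3 (lmFit, eBayes, two-sided, no covariates, Benjamini-Hochberg over all genes, threshold 0.05). Single values used 100000 permutations. Deaths used a Cox score test with Breslow ties (survival 3.8.3). Models were tested on simulated data.

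Named genes were the 12 each way with the smallest p and a gene name, up to 2 of each list, and preset genes, of which CD3E, CD14 and COL1A1 mark other cells. The members and lists were chosen with earlier results of these data known. Each dog gave 1 array, so p-values measure the spread between dogs. Alternatives covered the test, the scaling, the probe set rule, covariates, the group rule and leaving out each dog. The 8 lymph node dogs with a PFS indicator of 0 or without a PFS time were used only in a fit of all lymph node samples. Figures were drawn with matplotlib 3.10.9.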

Additional observations from a re-analysis of the deposited data

Results flagged for a closer look

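Of 54 sets of values checked in the long and middle groups (the 24 genes with the smallest p, PFS time, 3' minus 5' difference and proliferation mean), 2 had a dog far from the others of its group by Dixon's test, and chance alone would mark about 1 in 20. ASF1B was 8.32 in long replicate 7, the lowest of the 10 long tumours, and the nearest other long tumour was at 8.97. SLC10A1 was 6.46 in middle replicate 3, the highest of the 10 middle tumours, and the nearest was at 6.11.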

How the results depend on the processing

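The count of 0 genes past the threshold between short and long held under 16 of 19 alternatives other than leaving out single dogs, every probe set tested singly among them; it was 8 in DLBCL only, 19 with the 3' minus 5' difference as a covariate and 18 with log2 PFS time as well. Leaving out 1 dog gave 0 to 16 genes, with 843 to 1187 higher and 641 to 947 lower at an unadjusted p under 0.05, 14 to 20 proliferation, 8 to 10 nucleotide and amino acid and 7 to 17 respiration genes. The stricter rule gave 497 higher and 416 lower genes, and 2 respiration genes; the wider rule gave 4, all lymph node samples 19, and the covariates 22 and 20. In aspirates, 151 genes were higher by the rank-sum test, and 826 were higher and 611 lower with deaths only. The Cox test called 0 genes in DLBCL only and 1 without gaps of 0. The median of germinal centre genes was 0.062 with log2 PFS time, 0.072 with the 3' minus 5' difference and 0.062 with both, and that of cytotoxic genes 0.49 without the genes of lowest level, which leaves fewer genes. PFS time on a log2 scale differed by -0.79 (permutation p = 0.030). The cause of these changes was not tested.

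Of 2616 values of 146 genes under other settings, 2591 kept their direction. The others were ABCB1 (0.014 deaths only, 0.094 stricter and 0.092 wider rule, 0.016 with the 3' minus 5' covariate), NR3C1 (0.12 mean of probe sets, 0.0046 IGHV covariate, 0.0073 deaths only, 0.19 stricter rule), BCL2 (-0.086 without gaps of 0, -0.0016 wider rule), BCL6 (-0.16 log2 PFS covariate, -0.35 without gaps of 0, -0.044 in a narrow PFS range, -0.14 both covariates), MS4A1 (0.048 log2 PFS covariate, 0.0035 narrow PFS range, 0.0076 stricter and 0.15 wider rule), CD3E (0.24 mean of probe sets, 0.019 stricter and 0.050 wider rule), COL1A1 (-0.041 log2 PFS covariate, -0.17 DLBCL only, -0.055 wider rule) and DLA-DQA1 (0.032 wider rule). Leaving out 1 dog moved ABCB1 from -0.18 to 0.016, BCL6 from -0.084 to 0.30, CD3E from -0.12 to 0.017, COL1A1 from -0.11 to 0.63, MS4A1 from -0.16 to 0.0056 and NR3C1 from -0.087 to 0.050. No paired analysis was possible because each dog gave 1 sample and replicate numbers do not pair dogs. The limit on the 3' minus 5' difference left out none of the 21 arrays.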

Other observations

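A single gene passed in the Cox test once the 3 dogs with a gap of 0 were left out, a gene without a name on the array (LOC478001, adjusted p = 0.00237, against 0.227 with all 31 dogs). Its short minus long difference was 1.03 ± 0.64.

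Stromal genes of the node differed in both directions. FBN1, the microfibril protein fibrillin, ran from 6.43 through a median of 9.08 to 10.75 in short and from 7.53 through 10.57 to 12.23 in long tumours, a difference of -1.28 ± 0.56 (limma adjusted p = 0.348). MMP2, a gelatinase of fibroblasts, had 0.35 ± 0.11 in its main probe set, where 8 short tumours lay above the highest long value. For MMP2, 2 of 3 probe sets had that sign, and the lowest was at -0.16. MFGE8, a bridging protein of follicular dendritic cells, had 0.34 ± 0.12 with all 11 short tumours above the long median. Of 30 fibroblast and matrix genes 17 were higher and 13 lower in short tumours, with a median of 0.01.

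Heat shock genes were higher in part. HSPB1, a small chaperone, ran from 9.45 through 11.54 to 12.67 in short and from 8.40 through 10.07 to 11.76 in long tumours (0.91 ± 0.42), and DNAJB1, a co-chaperone of HSP70, differed by 0.53 ± 0.24. For DNAJB1, 3 of 4 probe sets had that sign, and the lowest was at -0.01. Of 17 immediate early and heat shock genes 11 were higher. The class I gene DLA-79 had -0.69 ± 0.30 in lymph node and -1.18 in the aspirates.

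The 5 lymph node dogs with a PFS indicator of 0 had proliferation means from 9.99 to 11.00 with a median of 10.51. The highest came from an array with a 3' minus 5' difference of 3.77, and the other 4 ran from 9.99 to 10.93 with a median of 10.35.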
